A study of Bos taurus with 18 samples.

Results

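The microRNAs (miRNAs) bta-miR-33a, bta-miR-33b, bta-miR-378, bta-miR-103, bta-miR-107 and bta-miR-122 (bta marks a bovine entry and hsa a human one), all known from lipid and energy metabolism, were followed in small RNA libraries from the papillae of the cow rumen. They were chosen by name and by their known roles, not by their values, though with earlier results of these data known. They are 6 of the 966 mature miRNA names listed, or of 824 miRNAs once names for the same molecule were merged. All 6 passed the filter on low counts and were among the 468 miRNAs tested. The rumen is the forestomach in which feed is fermented, and a high-grain ration gives more fermentation acids than forage does. The 18 libraries came from 9 non-lactating Holstein cows with rumen cannulas. The labels give 4 groups. HG_PHY (4 libraries) and HG_CON (5 libraries) were taken on the high-grain diet with 65% concentrate, and FD_PHY (4 libraries) and FD_CON (5 libraries) on the 100% forage diet that came before it. PHY marks the 4 cows in the supplemented arm and CON the 5 controls. What PHY stands for, and whether it was already fed during the forage period, is not stated in the sources read. Because forage came first in every cow, diet and time cannot be told apart. The labels do not say whether libraries with the same number came from the same cow, so the 18 libraries were treated as separate, and p-values measure the spread between these libraries only.

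A miRNA binds messenger RNAs that match its seed, a short stretch near its 5′ end, and lowers their translation or stability. In human cells, miR-33a and miR-33b lie within the genes of the sterol-sensing transcription factors SREBF2 and SREBF1 and repress the cholesterol exporter ABCA1. miR-378 lies within PPARGC1B, which encodes a coactivator of mitochondrial metabolism. miR-103 and miR-107 lie within pantothenate kinase genes, whose enzymes start the synthesis of coenzyme A, and have been linked in mouse liver and fat to insulin sensitivity. miR-122 is the dominant miRNA of liver, where it sustains cholesterol and fatty acid synthesis. In the RefSeq gene table of the ARS-UCD2.0 assembly MIR33A was spanned by SREBF2 and MIR33B by SREBF1. MIR378-1, on chromosome 7, was spanned by PPARGC1B, and MIR378-2, on chromosome 4, by CALCR, the calcitonin receptor gene. MIR103-1 was spanned by PANK3, MIR103-2 by PANK2 and MIR107 by PANK1. MIR122 was spanned by no other gene.

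The deposited files place miR-33a on chromosome 5 (113410755 to 113410775, plus strand) and miR-33b on chromosome 19 (35249067 to 35249086, plus strand). They place miR-378 on chromosome 4 (10715305 to 10715326, plus strand), the chromosome of the copy in CALCR and not of that in PPARGC1B. They place miR-103 on chromosome 13 (51742469 to 51742491, minus strand), miR-107 on chromosome 26 (11288043 to 11288064, minus strand) and miR-122 on chromosome 24 (58095656 to 58095677, plus strand). Their genome build is not stated in the sources read. A read that fits several names or loci was counted for each of them. Reads of miR-33a, miR-33b and miR-122 fitted no other name or locus, whereas reads of miR-378, miR-103 and miR-107 fitted several. With each read split over the names and loci it fits, the count averaged 25.7% of the raw count for miR-378. It averaged 32.6% for miR-103 and 18.8% for miR-107. The human entries for miR-378a-3p and miR-103a-3p had the same counts as the bovine entries and were merged with them. Which names share reads was not tested. The values of miR-103 and miR-107, close relatives that may share some, cannot be taken as independent of each other.

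The reads counted per library summed to between 5.74 and 15.2 M (mega), and 515 to 591 miRNAs were seen. This sum, called depth below, holds a read once for each miRNA for which it was counted. The epithelial miRNA miR-205 was present in every library, between 23563 CPM (reads of the miRNA per M reads counted, scaled between libraries by TMM) in HG_CON 3 and 36516 CPM in FD_CON 4. Marker sums of other cell types were set beside the diets without a test. The 5 muscle and mesenchymal miRNAs summed to between 102600 and 133030 CPM in the 9 grain libraries and between 129260 and 297900 CPM in the 9 forage libraries. Most of this sum was miR-143, which averaged 133130 CPM over the 18 libraries, against 4504 CPM for miR-145. The highest sum belonged to FD_CON 2, which stood apart from the next library, FD_PHY 3 with 166120 CPM. The 3 red cell miRNAs summed to between 6415 and 18352 CPM on grain and between 6404 and 14199 CPM on forage, which overlapped. The 2 endothelial miRNAs summed to between 9452 and 14189 CPM on grain and between 13013 and 16158 CPM on forage. The 7 leukocyte miRNAs summed to between 4836 and 7850 CPM on grain and between 5432 and 7972 CPM on forage. Their sums had medians of 5099 CPM on grain and 6732 CPM on forage. The sums for epithelium had medians of 59635 CPM on grain and 58036 CPM on forage, and those for liver and columnar gut 869 CPM on grain and 887 CPM on forage. In such bulk samples, fewer cells of a type and less RNA per cell cannot be told apart.

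The 6 miRNAs were present at very unlike levels in rumen papillae, and their ranges over the 18 libraries did not overlap. miR-378 was the most abundant, with 13375 ± 1993 CPM (SD, n = 18), rank 14 among the 468 miRNAs tested and 1.32% of the reads counted. miR-103 had 4150 ± 254 CPM (rank 36) and miR-107 302.4 ± 20.1 CPM (rank 114). miR-122 had 97.1 ± 36.6 CPM (rank 160), miR-33a 32.2 ± 6.98 CPM (rank 202) and miR-33b 0.813 ± 0.624 CPM (rank 451). The CPM counts mature molecules of nearly the same length, 20 to 23 nt, so no correction for length was made. One place in this order depends on how shared reads are counted. With the authors' adjusted counts, which divide a read over the names and loci it fits, miR-107 averaged 90.3 CPM and stood below miR-122 at 154 CPM, while miR-378 (5446 CPM) and miR-103 (2142 CPM) stayed at the top.

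**Figure D1:**
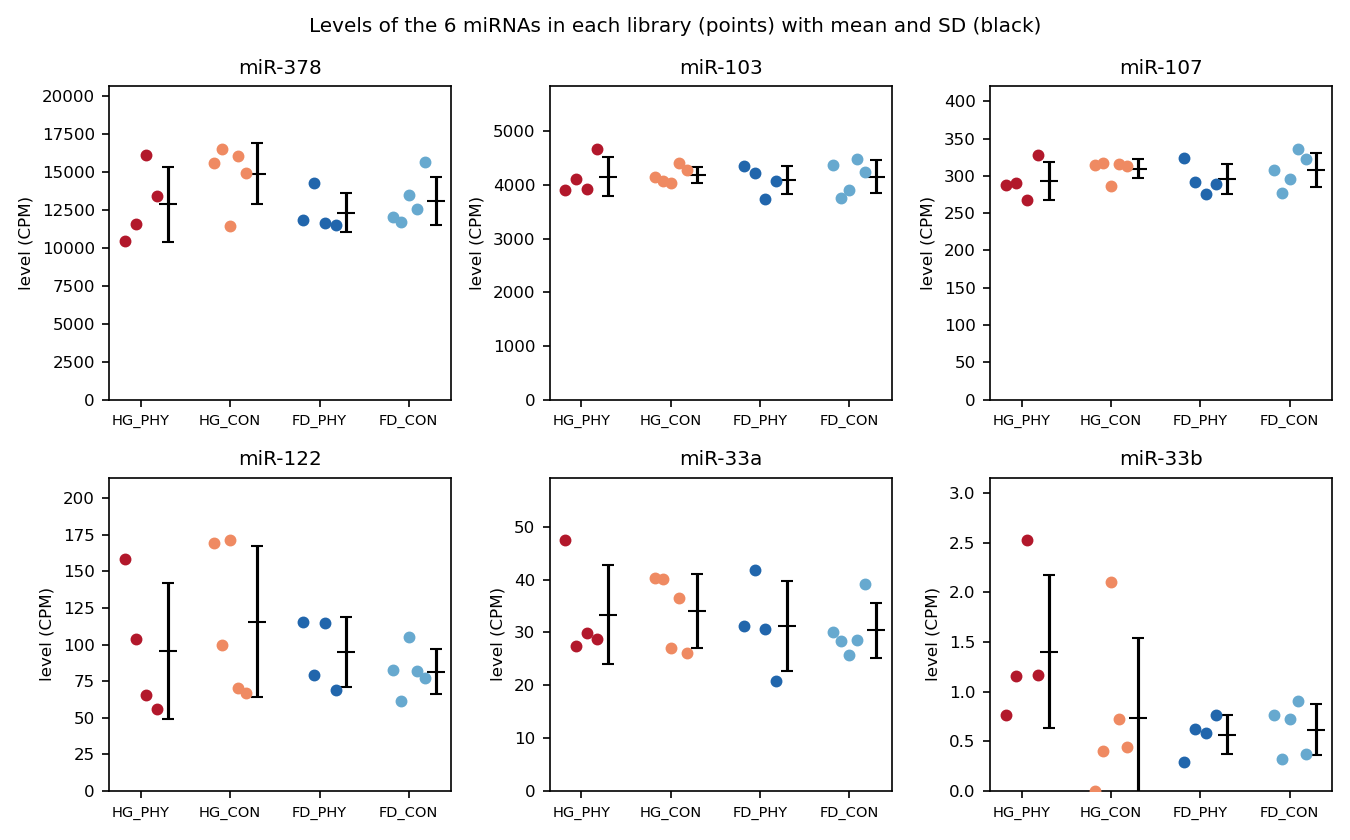
Level of each miRNA (y axis, CPM, each panel with its own scale from 0) in the 4 groups (x axis). Each point is 1 library, and the black bar is the group mean with its SD, cut at 0 for miR-33b in HG_CON. The groups overlap in every panel, miR-103 and miR-107 lie in narrow bands, and 3 grain libraries of miR-122 lie above 150 CPM.

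None of the 6 miRNAs was called in any of the 6 comparisons made. The main comparison set grain against forage, averaged over both arms, in edgeR's quasi-likelihood test, with p-values adjusted by the Benjamini-Hochberg method over all 468 miRNAs and 0.05 as the threshold. In it 0 of the 6 passed, against 0.214% of the 468. Unadjusted, with p under 0.05, the count was also 0 of 6, against 10.7% of all miRNAs. limma-voom called 0 of the 6 as well, and DESeq2 0 of the 5 for which it gave an adjusted p, miR-33b having none. The log2 change was above 0 for 5 of the 6, against 49.1% of all miRNAs, and its median over the 6 was 0.13, against -0.01 over all miRNAs. The lowest adjusted p among them, 0.5498, was that of miR-33b.

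The other 5 comparisons gave the same count. For grain against forage in PHY cows, 0 of the 6 passed the adjusted threshold, against 0% of all miRNAs, and 0 passed unadjusted, against 7.05%. In CON cows the counts were likewise 0 of 6, against 0% adjusted and 10.7% unadjusted. PHY against CON gave 0 of 6 on grain (background 0% adjusted and 6.84% unadjusted) and 0 of 6 on forage (0% and 4.7%). For the difference of the diet effect between the arms, PHY minus CON, 0 of 6 passed (0% and 2.14%). DESeq2 and limma-voom called 0 of the 6 in each of these comparisons. They share libraries, so their values are not independent.

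**Figure D2:**
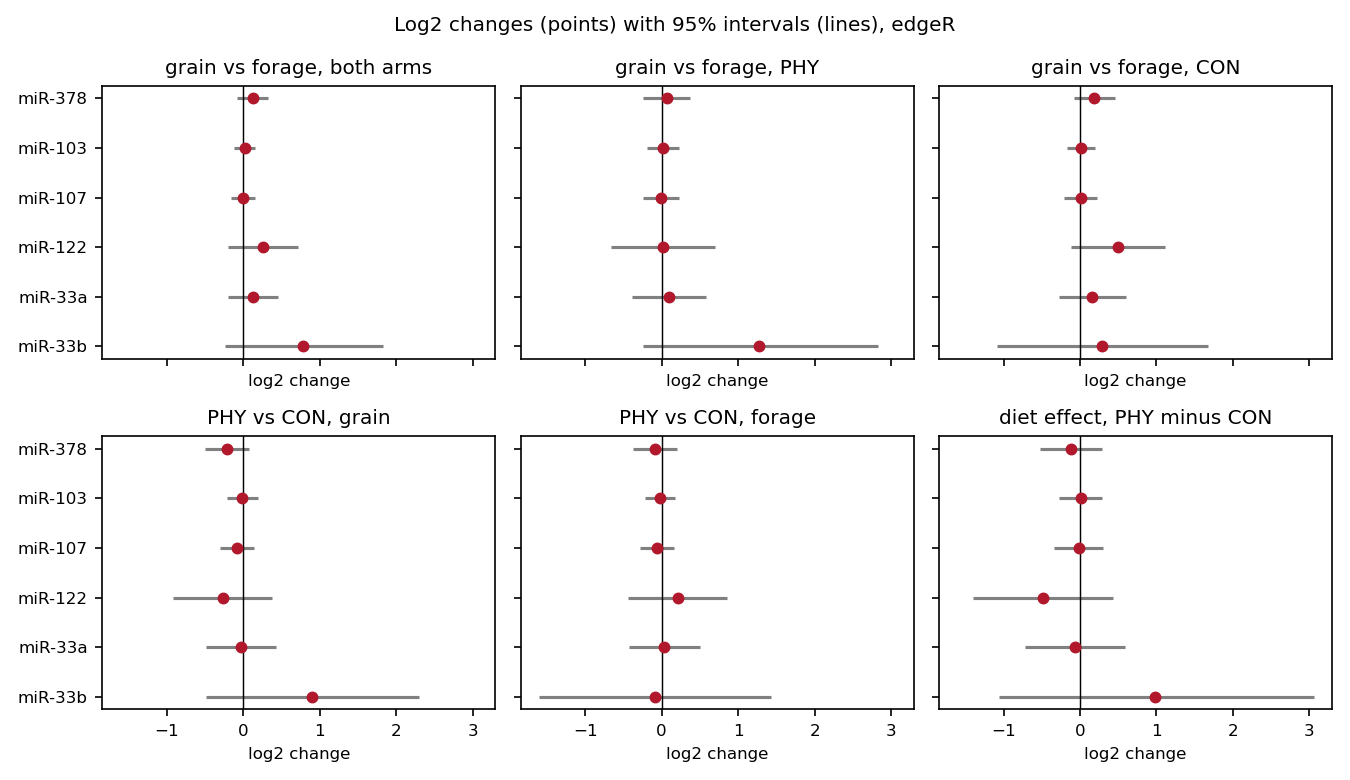
Log2 change (x axis) of each miRNA (y axis) in the 6 comparisons, with its 95% interval from edgeR. Every interval spans 0, those of miR-103 and miR-107 are the narrowest, and that of miR-33b is the widest in each panel.

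The sterol-linked pair was unequal in level. miR-33a, the copy in SREBF2, had 47.4, 27.4, 29.9 and 28.8 CPM in HG_PHY, against 31.3, 41.8, 30.6 and 20.9 CPM in FD_PHY. In the control arm it had 40.4, 40.1, 27.1, 36.5 and 26.1 CPM in HG_CON, against 30.1, 28.5, 25.8, 28.5 and 39.2 CPM in FD_CON. The groups overlapped in both arms. The highest value was HG_PHY 1, and the lowest was FD_PHY 4. Its log2 change on grain over both arms was 0.13 ± 0.16 (SE; 95% interval -0.20 to 0.46; edgeR, adjusted p = 0.8235). This interval corresponds to folds between 0.874 and 1.37. In PHY cows the log2 change was 0.10 ± 0.23 and in CON cows 0.16 ± 0.21. The value in PHY cows hung on HG_PHY 1, without which it was -0.12. PHY against CON gave -0.03 ± 0.22 on grain and 0.04 ± 0.22 on forage. In each library 210 to 419 reads of 5 to 13 different sequences stood behind these values.

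miR-33b, the copy in SREBF1, had very few reads. It had 5, 10, 24 and 15 reads in HG_PHY, against 2, 6, 4 and 8 reads in FD_PHY. In the control arm it was not listed in HG_CON 1 and had 4, 20, 7 and 4 reads in the other HG_CON libraries, against 9, 4, 7, 9 and 4 reads in FD_CON. The files list no count under 2, so an unlisted miRNA was set to 0. The reads summed to 89 on grain and 53 on forage, and HG_PHY 3 and HG_CON 3 held the most. Exact Poisson 95% intervals were 15.4 to 35.7 reads for HG_PHY 3, 12.2 to 30.9 reads for HG_CON 3 and 1.09 to 10.2 reads for a library with 4, and these cover counting error only. At most 3 different read sequences were seen per library. In CPM, 3 of the 4 HG_PHY libraries lay above every FD_PHY library, at 1.15, 2.52 and 1.17 CPM, while HG_PHY 1 with 0.763 CPM lay just below the highest FD_PHY value of 0.764 CPM.

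These few reads gave wide estimates. The log2 change of miR-33b on grain was 0.78 ± 0.50 (SE; 95% interval -0.24 to 1.83; edgeR, adjusted p = 0.5498). It was 1.27 ± 0.74 in PHY cows (adjusted p = 0.81) and 0.29 ± 0.66 in CON cows (adjusted p = 0.9532), and the difference between the arms was 0.99 ± 0.99 (adjusted p = 0.997). Without HG_PHY 3 the change over both arms was 0.57 and that in PHY cows 0.85. Without HG_CON 1 the change over both arms was 0.92, and without HG_CON 3 miR-33b no longer passed the filter. The value in CON cows was not stable, at -0.44 in limma-voom and 0.08 without FD_CON 2. On grain, PHY against CON gave 0.90 ± 0.67, and on forage -0.09 ± 0.73.

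The balance within the pair needs no scaling between libraries. Reads of miR-33a outnumbered those of miR-33b by at least 11.8-fold in the 8 grain libraries that list both, with a median of 37.6-fold, and by at least 27.4-fold in the 9 forage libraries, with a median of 52.5-fold. With 0.5 added to each count, the mean log2 ratio was 5.43 ± 1.67 on grain and 5.63 ± 0.70 on forage (SD, n = 9 each), a difference of -0.20 (two-sided exact permutation test, p = 0.767). The lowest ratios belonged to HG_PHY 3 and HG_CON 3, and the highest, 9.00, to HG_CON 1, where miR-33b was not listed and the value rests on the 0.5 added. Single libraries decided the difference: it was -0.64 without HG_CON 1 (exact permutation test, p = 0.1594), 0.03 without HG_CON 3 and 0.04 without HG_PHY 3.

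miR-378, linked to the PGC-1 coactivators of mitochondrial metabolism, had 10444, 11558, 16087 and 13417 CPM in HG_PHY, against 11836, 14283, 11655 and 11528 CPM in FD_PHY. In the control arm it had 15600, 16532, 11417, 16026 and 14914 CPM in HG_CON, against 12021, 11709, 13478, 12572 and 15682 CPM in FD_CON. HG_CON 2 and HG_CON 4 lay above every FD_CON library and HG_CON 3 lay below every one, so the ranges overlapped. Its log2 change on grain was 0.12 ± 0.10 (SE; 95% interval -0.08 to 0.33; edgeR, adjusted p = 0.6496). It was 0.06 ± 0.14 in PHY cows and 0.19 ± 0.13 in CON cows, where it was 0.26 without HG_CON 3 and 0.11 without FD_CON 2. In PHY cows the sign turned without HG_PHY 3, to -0.04. PHY against CON on grain gave -0.21 ± 0.14 (edgeR, adjusted p = 0.685), with only HG_PHY 1 below every HG_CON library. PHY against CON on forage gave -0.09 ± 0.14. Without FD_CON 2, the library with the highest muscle sum, the change over both arms was 0.09. The part of tissue make-up in these values was not tested.

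Other names of the miR-378 family were not called either. miR-378c (453 ± 68.5 CPM on grain and 409.6 ± 57.1 CPM on forage; SD, n = 9 each) had a log2 change of 0.15 ± 0.10, miR-378d 0.20 ± 0.13 and miR-378b 0.28 ± 0.16, with edgeR adjusted p-values of 0.565, 0.565 and 0.528. Reads of these 3 fit other names or loci too, and their values are uncertain for that reason. The entry hsa-miR-378a-5p, by its name the opposite strand of the human miR-378a hairpin, had reads that fitted no other name or locus. It had 356 ± 57.9 CPM on grain and 369.9 ± 62.6 CPM on forage, a log2 change of -0.04 ± 0.12 (edgeR, adjusted p = 0.918). miR-378 exceeded it 31.4- to 51.4-fold on grain (median 40.7) and 23.1- to 43.4-fold on forage (median 36.2), and these ranges overlapped.

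The miRNAs whose profile over the 18 libraries came closest to that of miR-378 were miR-532, hsa-miR-93-5p and miR-28, each at a root mean square distance of 0.18 on the log2 scale, where the median over 275 miRNAs of at least 10 CPM was 0.36. For miR-33a they were miR-17-3p (0.23), miR-500 (0.24) and miR-27a-3p (0.25), against a median of 0.41. These distances describe the 18 libraries, which share depth and scaling between all miRNAs.

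miR-103 and miR-107, which share a seed, varied little between libraries. miR-103 is often used as an internal standard in quantitative PCR. miR-103 had 3904, 4104, 3934 and 4677 CPM in HG_PHY, against 4360, 4217, 3737 and 4067 CPM in FD_PHY. In the control arm it had 4145, 4079, 4032, 4413 and 4279 CPM in HG_CON, against 4368, 3758, 3905, 4482 and 4248 CPM in FD_CON. From lowest to highest it spanned 1.20-fold on grain and 1.20-fold on forage, while depth differed 2.65-fold between all libraries. miR-107 had 287, 289.9, 268 and 328 CPM in HG_PHY, against 324, 292, 276 and 289.6 CPM in FD_PHY. In the control arm it had 314, 318, 287, 316 and 313 CPM in HG_CON, against 308, 278, 295, 337 and 323 CPM in FD_CON. All groups overlapped for both miRNAs.

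The estimates for this pair were the most precise of the 6. The log2 change on grain was 0.02 ± 0.07 for miR-103 (SE; 95% interval -0.12 to 0.16; edgeR, adjusted p = 0.9399) and -0.00 ± 0.08 for miR-107 (-0.16 to 0.16; adjusted p = 0.988). The intervals correspond to folds between 0.918 and 1.12 for miR-103 and between 0.895 and 1.11 for miR-107. The sign of so small a value depended on the scaling and on single libraries: without FD_CON 2 it was -0.02 for miR-103 and -0.04 for miR-107, and with upper-quartile scaling it was -0.01 for miR-103. PHY against CON gave -0.01 ± 0.10 on grain and -0.02 ± 0.10 on forage for miR-103, and -0.08 ± 0.11 and -0.06 ± 0.11 for miR-107. The ratio of miR-103 to miR-107 reads lay between 12.8 and 14.7 in all 18 libraries. Its mean log2 value was 3.79 ± 0.06 on grain and 3.77 ± 0.05 on forage (SD, n = 9 each), a difference of 0.02 (two-sided exact permutation test, p = 0.510). These are raw counts, in which a read that fits both names is counted for each, so shared reads could hold the ratio steady. With adjusted counts miR-103 averaged 2142 CPM and miR-107 90.3 CPM, a wider gap. The difference in their log2 ratio was then 0.03 (exact permutation test, p = 0.259). The opposite strand listed as hsa-miR-103a-2-5p had 259 reads in all and a log2 change of -0.04 ± 0.44.

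Over the 18 libraries, the SD of log2 CPM was 0.088 for miR-103 and 0.096 for miR-107, the 2 lowest values among 275 miRNAs of at least 10 CPM, whose median was 0.298. miR-378 came at rank 56 with 0.213, miR-33a at rank 145 with 0.304 and miR-122 at rank 238 with 0.501. The order near the top depended on the processing. With shares of reads and no TMM factor, miR-103 stood at rank 10 and miR-107 at rank 11, with adjusted counts at ranks 2 and 4, and in the authors' table at ranks 2 and 5. Among the grain libraries alone they stood at ranks 3 and 6 of 279, and among the forage libraries alone at ranks 7 and 9 of 272. These alternatives were chosen after seeing the data. The closest profiles outside the family were those of miR-194, miR-185 and hsa-miR-16-5p, at distances of 0.09, 0.11 and 0.11 from miR-103 and 0.10, 0.12 and 0.12 from miR-107, where the medians were 0.31 and 0.31. These 3 miRNAs also had low SDs of log2 CPM, at 0.11, 0.12 and 0.12. Profiles with so little spread lie close to each other whatever their shape, so these distances mostly restate the low SDs.

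**Figure D3:**
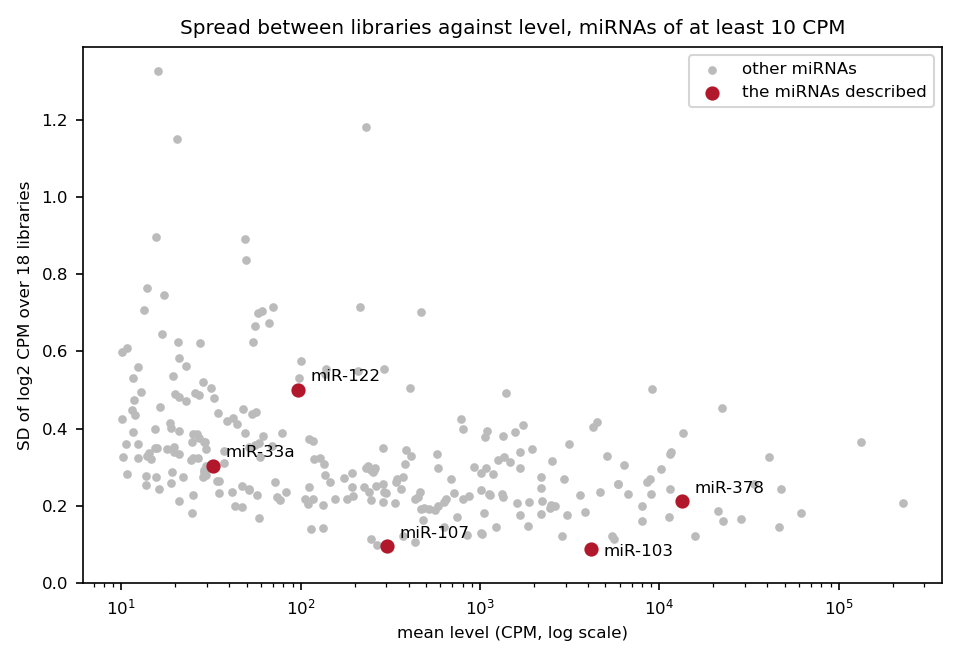
SD of log2 CPM over the 18 libraries (y axis) against mean level (x axis, CPM, log scale) for the 275 miRNAs with a mean of at least 10 CPM. Red points are the miRNAs described, of which miR-103 (0.088) and miR-107 (0.096) lie at the lower edge and miR-122 (0.501) lies above most miRNAs of its level. miR-33b is too low to be shown.

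miR-122, the liver miRNA, was the most variable of the 5 that reached 10 CPM, and its highest values were on grain. It had 158, 104, 65.5 and 55.7 CPM in HG_PHY, against 115, 79.1, 115 and 69.3 CPM in FD_PHY. In the control arm it had 169, 99.9, 171, 70.3 and 66.8 CPM in HG_CON, against 82.6, 61.8, 104.9, 81.6 and 77.0 CPM in FD_CON. HG_CON 3, HG_CON 1 and HG_PHY 1 lay above every forage library, whereas HG_PHY 4 lay below every one, so the grain libraries spread to both sides of the forage range. The grain values spanned 3.07-fold and the forage values 1.86-fold.

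The log2 change of miR-122 on grain was 0.26 ± 0.22 (SE; 95% interval -0.20 to 0.72; edgeR, adjusted p = 0.6864). It was 0.02 ± 0.33 in PHY cows and 0.50 ± 0.29 in CON cows (adjusted p = 0.6198), and the difference between the arms was -0.48 ± 0.44 (adjusted p = 0.997). Single libraries decided these sizes. Without HG_CON 3 the value in CON cows was 0.29 and without HG_CON 1 it was 0.34, and without HG_PHY 1 the value in PHY cows was -0.33 and that over both arms 0.08. PHY against CON gave -0.27 ± 0.31 on grain and 0.21 ± 0.31 on forage, and the grain value was -0.61 without HG_PHY 1 and -0.05 without HG_CON 3.

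The 3 profiles nearest to that of miR-122 were those of miR-302b (0.09), miR-486 (0.10) and miR-375 (0.13), where the median distance was 0.59. Of these 3, only miR-486 is one of the red cell miRNAs summed above. miR-375 is known from endocrine and columnar gut cells. miR-486 had between 858 and 2537 CPM on grain and between 821 and 1538 CPM on forage, and its ratio to miR-122 lay between 12.7 and 16.3 in all 18 libraries. The same 3 libraries were highest for both, with 2537 CPM of miR-486 in HG_CON 3, 2461 CPM in HG_CON 1 and 2272 CPM in HG_PHY 1. The erythroid miRNAs miR-451 and miR-144 lay at distances of 0.18 and 0.27. Their ratios to miR-122 varied more, between 80.3 and 151 for miR-451 and between 1.78 and 4.22 for miR-144. The ratio of miR-302b to miR-122 lay between 0.259 and 0.317. miR-451 had 15477 CPM in HG_CON 3, 14805 CPM in HG_CON 1 and 14273 CPM in HG_PHY 1. miR-144 had 337 CPM, 350 CPM and 325 CPM in these libraries. In FD_CON 1 the profiles parted: miR-451 had 12506 CPM and miR-144 had 348 CPM, while miR-122 lay below its mean with 82.6 CPM.

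In the list for liver and columnar gut, miR-375 lay near miR-122, as given above, whereas miR-192, miR-194 and miR-215 lay at distances of 0.53, 0.52 and 0.51 from miR-122. miR-192 held between 232 and 284 CPM on grain and between 254 and 310 CPM on forage. Its highest library exceeded its lowest 1.34-fold, against 3.07-fold for miR-122. The sum of the 3 erythroid miRNAs was highest in HG_CON 3, at 18352 CPM, and in HG_CON 1, at 17615 CPM, and lowest in FD_CON 2, at 6404 CPM. Its part in the miR-122 values was not tested.

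**Figure D4:**
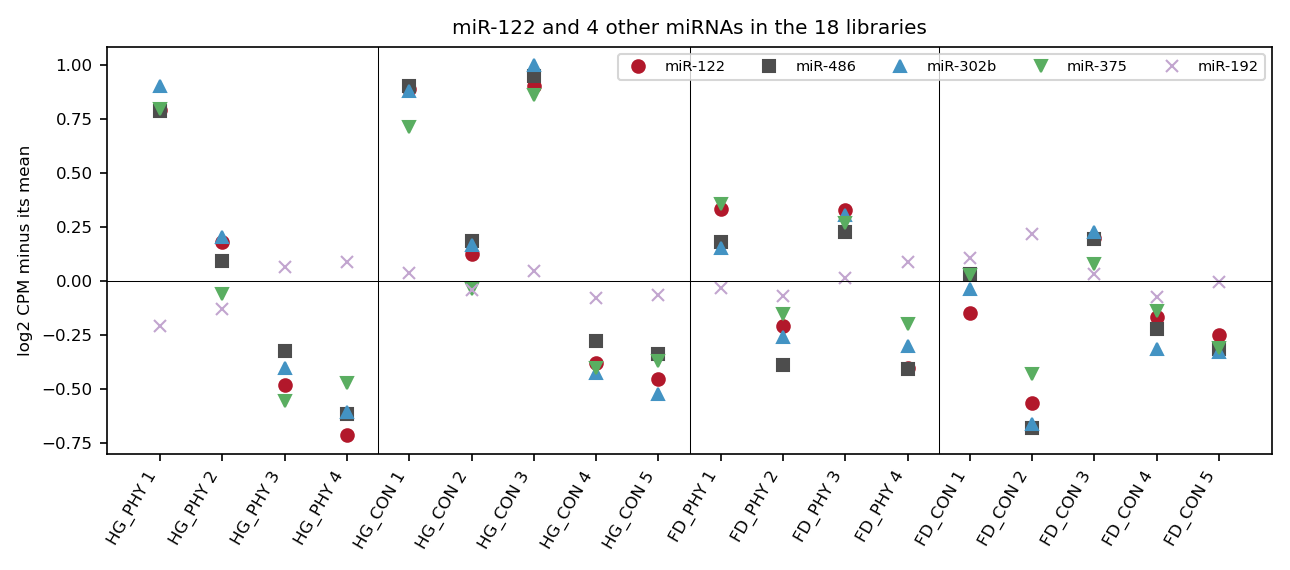
Log2 CPM of miR-122 and 4 other miRNAs minus each one's mean (y axis) in each of the 18 libraries (x axis), with vertical lines between the 4 groups. miR-122, miR-486, miR-302b and miR-375 are high together in HG_PHY 1, HG_CON 1 and HG_CON 3, whereas miR-192 stays near 0 in every library.

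The read counts of miR-122 also varied less between libraries than its CPM values, unlike those of most miRNAs. In HG_PHY they were 1037, 898, 623 and 716, and in HG_CON 1070, 996, 1631, 681 and 608. In FD_PHY they were 787, 759, 788 and 726, and in FD_CON 969, 766, 1018, 811 and 824. In the forage libraries the counts differed only 1.40-fold from lowest to highest, while depth differed 2.33-fold, from 6.53 to 15.2 M reads. In CPM the forage libraries differed 1.86-fold. The shallowest libraries, HG_CON 1 (5.74 M) and HG_PHY 1 (6.001 M), had 169 and 158 CPM. FD_PHY 1 (6.532 M) and FD_PHY 3 (6.563 M), the shallowest on forage, had 115 CPM each. The deepest of each diet, FD_CON 2 (15.2 M) and HG_PHY 4 (13.303 M), had that diet's lowest values, 61.8 and 55.7 CPM. HG_CON 3, the highest with 171 CPM, had 8.637 M reads. Mean depth was 8.532 M in HG_CON and 11.926 M in FD_CON, and 9.263 M in HG_PHY and 8.343 M in FD_PHY.

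For miR-122 the SD of the log2 counts was 0.340 and that of log2 CPM 0.501. Their ratio of 0.679 was the lowest of the 275 miRNAs, whose median was 1.48, and 25 of them (9.09%) had a ratio under 1. The next lowest were miR-202 (0.715), miR-486 (0.720), miR-375 (0.721) and miR-302b (0.731). At the other end, miR-103 had the highest ratio, 3.86. Its log2 counts also had an SD of 0.340, so its place reflects its low SD of log2 CPM, 0.088. The ratio was 3.42 for miR-107, 1.86 for miR-378 and 1.11 for miR-33a. Whether depth has a part in the CPM values of miR-122 was not tested. The related human entry hsa-miR-122b-5p was listed in 3 libraries with 7 reads in all.

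**Figure D5:**
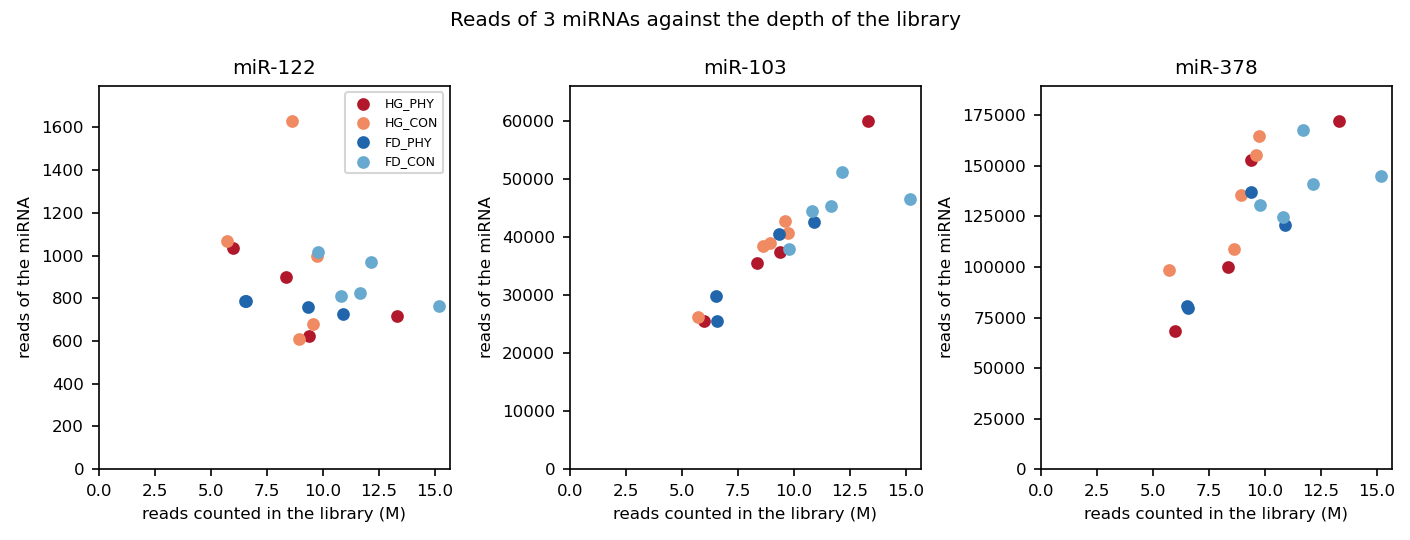
Reads of miR-122, miR-103 and miR-378 (y axes) against the reads counted in each library (x axis, M), 1 point per library and coloured by group, all axes from 0. Reads of miR-103 climb with depth along a line, those of miR-378 do so with more scatter, and those of miR-122 lie between 608 and 1070 reads at any depth, apart from 1631 reads in HG_CON 3.

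Other miRNAs with roles in the same pathways were counted from 3 lists. At an unadjusted p under 0.05, 4.27% of all miRNAs were higher and 6.41% lower on grain. Of the sterol and lipoprotein list, 14 of 16 miRNAs were tested, and on grain 0 passed the edgeR test, 2 were higher and 1 lower unadjusted, and 9 had a log2 change above 0 (median 0.05, against -0.01 over all miRNAs). miR-128 (522 ± 59.9 CPM on grain and 452 ± 54.2 CPM on forage; SD, n = 9 each) had a log2 change of 0.21 ± 0.09 (edgeR, adjusted p = 0.331). miR-223, a myeloid miRNA, was the other one higher unadjusted, with 337 ± 104 CPM on grain and 241 ± 92.1 CPM on forage (log2 change 0.48 ± 0.20; edgeR, adjusted p = 0.331). It is also 1 of the leukocyte markers, whose sum had the lower median on grain. miR-27a-3p, which lay near miR-33a in profile and was not among those 2, had 22480 ± 3025 CPM on grain and 20143 ± 2274 CPM on forage (log2 change 0.17 ± 0.09; edgeR, adjusted p = 0.468). miR-30c, which represses microsomal triglyceride transfer protein in mouse liver, had 2179 ± 429 CPM on grain and 2837 ± 531 CPM on forage (log2 change -0.38 ± 0.11; edgeR, adjusted p = 0.165).

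Of the insulin and glucose list, 11 of 12 were tested, and 0 passed, with 0 higher and 3 lower unadjusted (median -0.06). The 3 were miR-143, miR-29a and miR-29b, with log2 changes of -0.51 ± 0.12, -0.26 ± 0.09 and -0.21 ± 0.10. miR-143 is also 1 of the muscle markers, whose sum had a median of 107890 CPM on grain and 143650 CPM on forage. It makes up most of that sum, which is therefore not a separate measure beside it. Of the brown fat and mitochondria list, 8 of 10 were tested and 0 passed, with 0 on either side unadjusted (median -0.13). Its lowest p belonged to miR-365-3p, a brown fat miRNA in mice, with 1379 ± 268 CPM on grain and 1752 ± 662 CPM on forage (log2 change -0.29 ± 0.15; edgeR, adjusted p = 0.465). In the other 5 comparisons, too, 0 miRNAs of these lists passed.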

How the data were processed

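Small RNA was sequenced from 18 libraries of rumen papillae, made with the NucleoSpin miRNA and NETflex Small RNA-Seq kits, per the labels' protocols. Tools in the submitters' processing notes were bcl2fastq 2.20 and DESeq2, the second with no stated role. No aligner, counting program or genome build is stated in the sources read. Per the file headers, each library file holds 2 values per mature name: the raw count, and an expected count for which the authors split a read among all names and loci that it fits. A further table by the authors covers all libraries with a normalized signal for 673 names. Multiplied by 1 size factor per library, 100% of its values were whole reads within 0.01, all equal to the adjusted counts after rounding. On these recovered reads edgeR called 2 miRNAs in the main comparison.

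Names were merged where positions overlapped by 15 nt or more, or where bovine and human entries of 1 miRNA had totals within 5% of each other. This gave 824 miRNAs, 141 with several names. Members kept their own names, and any other miRNA took its most abundant name. A miRNA not listed in a library was set to 0 (lowest listed count 2). Raw counts were filtered with filterByExpr, scaled by TMM and tested in edgeR 4.0.16 (R 4.3.3), with a mean for each of 4 groups, two-sided, Benjamini-Hochberg adjusted over 468 miRNAs, threshold 0.05. No cow term was used. Standard errors and 95% intervals rest on unshrunk coefficients. The log2 changes are those edgeR prints, which it shrinks towards 0, so an interval need not be centred on its log2 change where reads are few. Poisson intervals cover counting error only. Alternatives used DESeq2 1.42.0, limma 3.58.1 (voom, and trend on log2 of the authors' signal plus 1), other scalings and filters, adjusted counts rounded to whole numbers, unmerged names and each library left out. The scripts were tested on simulated counts. Distances are root mean square differences of mean-centred log2 CPM.

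The 6 miRNAs, the lists and the tests were chosen with earlier results of these data known. Named miRNAs were the 6, their family names, up to 4 of each list (lowest p on grain against forage) and the 3 nearest profiles of each of the 6 with at least 10 CPM. Marker miR-203 and the list members miR-301b, miR-758, miR-802 and miR-208b were not analysed here, being unlisted or under the filter. The list member miR-133b was not tested either and entered only the muscle sum. The column that marks duplicates was not used, since its meaning is not stated.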

Additional observations from a re-analysis of the deposited data

Results flagged for a closer look

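Of 32 sets of 4 or 5 values tested (6 miRNAs and 2 ratios in each of 4 groups), 3 held a library far from the others by Dixon's criterion at 95%, which chance alone meets in about 1 group in 20. For miR-33a, HG_PHY 1 was the highest of its group with 47.4 CPM, and the gap to the next library made up 0.879 of the range of the group. For miR-378, FD_PHY 2 was the highest of its group with 14283 CPM, at 0.888 of the range. For miR-107, HG_CON 3 was the lowest of its group with 287 CPM, at 0.853 of the range.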

How the results depend on the processing

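Under 30 alternative settings, 0 of the 6 miRNAs were called in any comparison in which they had a value, and the lowest adjusted p was 0.3456. Over both arms, the log2 changes of miR-33a, miR-33b, miR-378 and miR-122 kept their sign in every setting; outside the fits with a library left out they spanned 0.06 to 0.27 for miR-122 and 0.38 to 0.80 for miR-33b. miR-33b had no value with a filter of 10 CPM or without HG_CON replicate 3, and no adjusted p in DESeq2 over both arms.

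The count of all miRNAs called on grain against forage over both arms was 1 and moved most: 0 with upper-quartile scaling, without the 5 most abundant miRNAs or with a filter of 10 CPM, 2 with unmerged names, limma-trend on the authors' table or the reads recovered from it (a choice made after seeing the data), 3 with no filter or in limma-voom, and 5 in DESeq2. Leaving out each library gave 0 to 3, the 3 without HG_CON replicate 3. In PHY cows limma-voom called 1. PHY against CON on forage gave 1 with no filter and 1 in DESeq2, and 0 to 1 with each library left out. PHY against CON on grain gave 2 in DESeq2 and 0 to 2 with each library left out. The cause was not tested.

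Same-numbered grain and forage libraries deviated together with a correlation above 0.1 in 3 of 9 pairs, and 2 of 9 correlated best with their own number, so the numbers were not taken as pairs. A fit with the replicate block called 4 miRNAs over both arms, gave -0.0255 for miR-33b in CON cows and -0.0663 for miR-122 in PHY cows, and has no value for PHY against CON.

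Signs turned as follows (log2). Over both arms miR-103 was -0.0083 with upper-quartile scaling, and miR-107 was 0.0007 with RLE, 0.0028 with the 10 CPM filter and 0.0011 in DESeq2. In CON cows miR-33b was -0.4441 in limma-voom and -0.2806 in limma-trend, and miR-103 was -0.0178 with upper-quartile scaling and -0.0014 in limma-voom. There miR-107 was -0.0241 with upper-quartile scaling, -0.0001 without the 5 most abundant, -0.0017 in limma-voom, -0.01 with adjusted counts, -0.0027 with unmerged names and -0.0071 with recovered reads. In PHY cows limma-voom gave -0.0348 for miR-33a and -0.15 for miR-122, for which upper-quartile scaling gave -0.0013 and limma-trend -0.0802. For PHY against CON on grain, miR-103 was 0.0003 with adjusted counts and 0.0025 with unmerged names. For the difference between the arms, miR-103 was -0.0149 with RLE and in DESeq2, -0.0266 with no filter and -0.019 in limma-trend.

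With each library left out in turn, these log2 values spanned 0. Over both arms the range was -0.0203 to 0.044 for miR-103 and -0.0392 to 0.0336 for miR-107. In CON cows it was -0.0625 to 0.0408 for miR-103 and -0.069 to 0.0404 for miR-107. In PHY cows it was -0.0361 to 0.0679 for miR-103, -0.0643 to 0.0527 for miR-107, -0.3321 to 0.207 for miR-122, -0.1217 to 0.2628 for miR-33a and -0.0402 to 0.1422 for miR-378. For PHY against CON on grain it was -0.0487 to 0.0392 for miR-103 and -0.2398 to 0.0649 for miR-33a. On forage it was -0.0621 to 0.0226 for miR-103, -0.1191 to 0.2028 for miR-33a and -0.2664 to 0.1174 for miR-33b. For the difference between the arms it was -0.05 to 0.0842 for miR-103, -0.0667 to 0.0595 for miR-107 and -0.2866 to 0.1062 for miR-33a. The log2 ratio of miR-33a to miR-33b differed by -0.6416 to 0.0408.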
